A study of Mus musculus with 6 samples.

Results

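The nuclear-encoded genes of the respiratory chain were followed across 6 stromal populations, named P1 to P6 and sorted by flow cytometry from wild-type C57BL/6 omentum. Members were taken by gene symbol: names beginning with Ndufa, Ndufb, Ndufc, Ndufs or Ndufv for complex I, Sdha to Sdhd for complex II, Uqcr for complex III, Cox4 to Cox8 for complex IV and Atp5 for complex V. These names gave 92 of the 23352 genes listed. By name alone, 45 were counted for complex I, 4 for complex II, 8 for complex III, 18 for complex IV and 17 for complex V. The names also took in 10 assembly factors and 8 tissue isoforms, and they left out cytochrome c1 and cytochrome c, which are given with the neighbouring genes. The 13 subunits made from mitochondrial DNA were not analysed here.

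All 6 gates excluded CD45+ leukocytes. P1, P2 and P3 were CD140a+CD105+ cells with high, intermediate and low activity of aldehyde dehydrogenase (ALDH), the enzyme family that makes retinoic acid. P4 and P5 were CD140a+CD105- cells with intermediate and low ALDH activity, and P6 was the ALDH-positive fraction with low CD140a. The study sorted these fractions to place ALDH activity among the stromal cells of the omentum, a fatty fold of the peritoneum that carries lymphoid clusters called milky spots. Each population had 1 library, so no difference below has a replicate check or a test, and the number of mice behind a library was not given in the sources used here.

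The respiratory chain sits in the inner mitochondrial membrane. Complexes I and II feed electrons from NADH and succinate to ubiquinone, complex III passes them to cytochrome c, complex IV hands them to oxygen, and complex V uses the resulting proton gradient to make ATP. All of complex II, and most subunits of the other complexes, are encoded in the nucleus, and several complex IV subunits have tissue-specific isoforms that replace the widely expressed form in muscle, testis or lung. The transcription factors NRF1, GABPA (NRF2), YY1 and the oestrogen-related receptors are known to bind promoters of these genes, with PGC-1 coactivators as partners.

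Values are FPKM, a read density divided by exon length and by library size, so that levels of different genes can be compared. Depth, estimated from the step size of low values, was 53200000 to 61700000 reads in P1 to P5 and 36900000 reads in P6. Pdgfra, which encodes CD140a, was listed at 117 to 154 FPKM in P1 to P5 and at 5.36 in P6, and Eng, which encodes CD105, at 42.6 to 52.4 FPKM in P1 to P3 and at no more than 0.728 in P4 to P6. These values followed the gates. Markers of other cell types stood beside them: the summed FPKM of 11 mesothelial genes was 76.1, 97.4 and 154 in P1, P2 and P3, 1032 and 834 in P4 and P5, and 3156 in P6, with Krt19 at 619.8 FPKM in P6. A list of 15 pancreatic acinar genes summed to 5.08, 271, 29.0, 1465, 171 and 2116 FPKM in P1 to P6, and 10 adipocyte genes summed to 399.5 FPKM in P6 and to 421 to 603 FPKM elsewhere. Within that list Lpl was lowest in P6 (24.9 FPKM against 83.1 to 412), while Cfd and Adipoq reached 114 and 14.7 FPKM there against at most 0.337 and 0.785 elsewhere. The part of these cells in the results on P4, P5 and P6 below was not tested. In bulk libraries, a larger share of cells that carry a transcript and more transcript per cell cannot be told apart.

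Respiratory chain genes were abundant and even. They held 1.46%, 1.44%, 1.51%, 1.59%, 1.70% and 1.57% of all FPKM in P1 to P6, and 87 of the 92 had a mean of at least 1 FPKM over the 6 libraries, the minimum for every ratio below. The other 5 were the isoforms Cox4i2, Cox6a2, Cox7b2, Cox8c and Ndufa4l2. Cox8b, with a mean of 1.04 FPKM, passed only through its 4.02 FPKM in P6. Every count below that includes Cox8b depends on that value. Cox4i1, which encodes a regulatory subunit of cytochrome c oxidase, was the highest member by its mean (230.2 FPKM), followed by Cox6a1 (219.9), the complex I-named Ndufa4 (200.2), the catalytic beta subunit gene Atp5b of ATP synthase (195) and Cox6c (195). By complex, the median member stood at 46.4 FPKM for I, 48.0 for II, 69.6 for III, 40.8 for IV with its isoforms counted, and 100.5 for V.

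Levels followed the class of the gene product. In complex I, the 7 core subunits, which carry the redox centres, had means of at least 21.9 FPKM (Ndufs1), and the 30 accessory subunits lay between 7.21 FPKM (Ndufa11) and 200.2 FPKM (Ndufa4). The 7 complex I assembly factors, which build the enzyme and leave it, were lower, between 1.69 FPKM (Ndufaf5) and 11.5 FPKM (Ndufaf2). In complex IV the 10 common subunits had a median of 141 FPKM and the 7 tissue isoforms a median of 0.511 FPKM. The order of the 87 members hardly differed between libraries: over the 15 pairs of populations, Spearman's rho across genes was between 0.972 (P1 and P6) and 0.995 (P1 and P2), a description in which the points share transcript lengths and libraries.

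**Figure D1:**
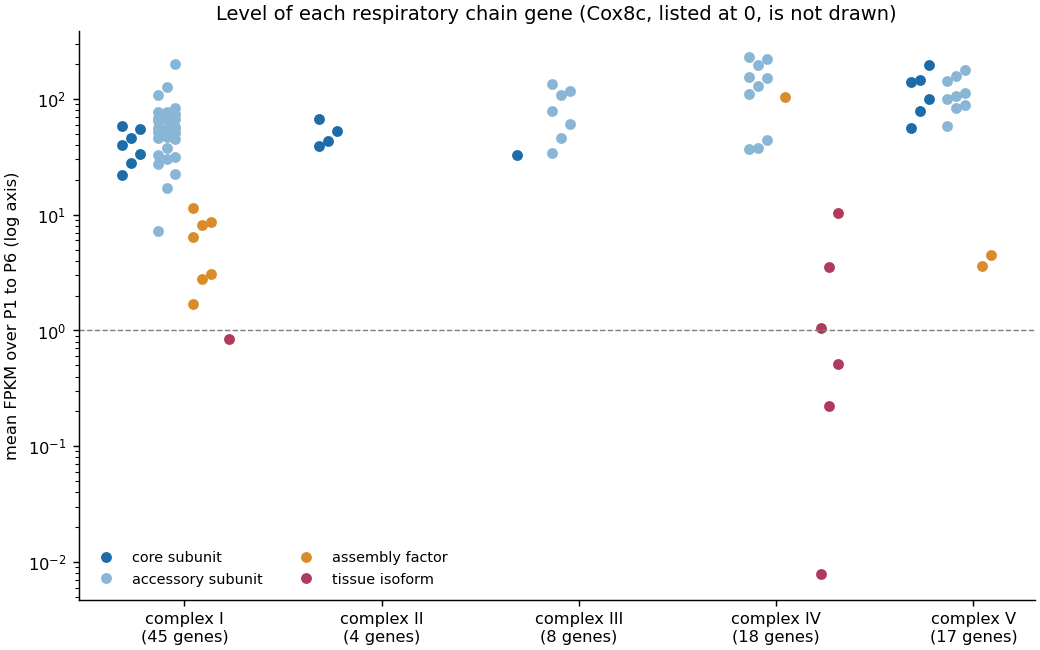
Mean FPKM over P1 to P6 (vertical log axis) of each respiratory chain gene, by complex (horizontal) and coloured by class, with 1 point a gene and a dashed line at 1 FPKM. Core and accessory subunits other than Ndufa11 (7.21) lie at 17.0 FPKM or higher, assembly factors other than Cox7a2l (104) at 11.5 FPKM or lower and tissue isoforms at 10.3 FPKM or lower.

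The spread across populations was narrow. The highest of the 6 FPKM values was a median of 1.27 times the lowest over the 87 members. Over the 12053 genes of all kinds that passed the same minimum this ratio had a median of 1.59 times. The ratio stayed under 1.5 times in 75 of the 87 members and in 5285 of the 12053 genes. It reached 2 times in 7 of 87 members, against 34.2% of all genes. High expression alone did not go with such evenness: among genes with a mean of at least 20 FPKM, 2 of 73 members but 29.8% of the 3406 other genes reached 2 times. The evenest members were Uqcrq of complex III, with 58.8 to 62.1 FPKM, and Ndufb5 of complex I, with 31.5 to 33.7 FPKM. Those that reached 2 times were Cox6b2, Cox7a1, Cox8b, Atp5sl, Ndufa4, Ndufs5 and Ndufaf5.

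The populations differed little in the sum of small shifts. By the median over members of log2(FPKM + 0.1) minus each gene's own mean, P1, P2 and P3 stood at -0.05, -0.09 and -0.05, P4 and P5 at 0.06 and 0.10, and P6 at 0.01. Over all genes the same medians were -0.13, -0.07 and -0.03 for P1 to P3, 0.01 and 0.05 for P4 and P5, and 0.06 for P6. P5 held the highest value of 38 of the 87 members (25.1% of all genes were highest in P5), P6 of 19 (36.4%), P4 of 15 (6.5%), P1 of 8 (14.6%), P3 of 5 (8.6%) and P2 of 2 (8.7%). On the deposited scale, P4 and P5 together thus had more members at their highest level than the share of all genes there, and P6 fewer. This order depended on the scale between libraries: after division by Gapdh, whose own FPKM was 214 to 224 in P1 to P3, 302 and 326 in P4 and P5 and 270 in P6, P1 held the highest value of 46 members (29.0% of all genes) and P4 and P5 of none (0.863% and 3.06%). After scaling by the median of ratios P1 held 38 (28.7%). P5 still held the most with a common sum of FPKM (41, 24.9%) and after quantile normalization (29, 20.04%). In the latter P6 held 28 of the 87 (29.6%).

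**Figure D2:**
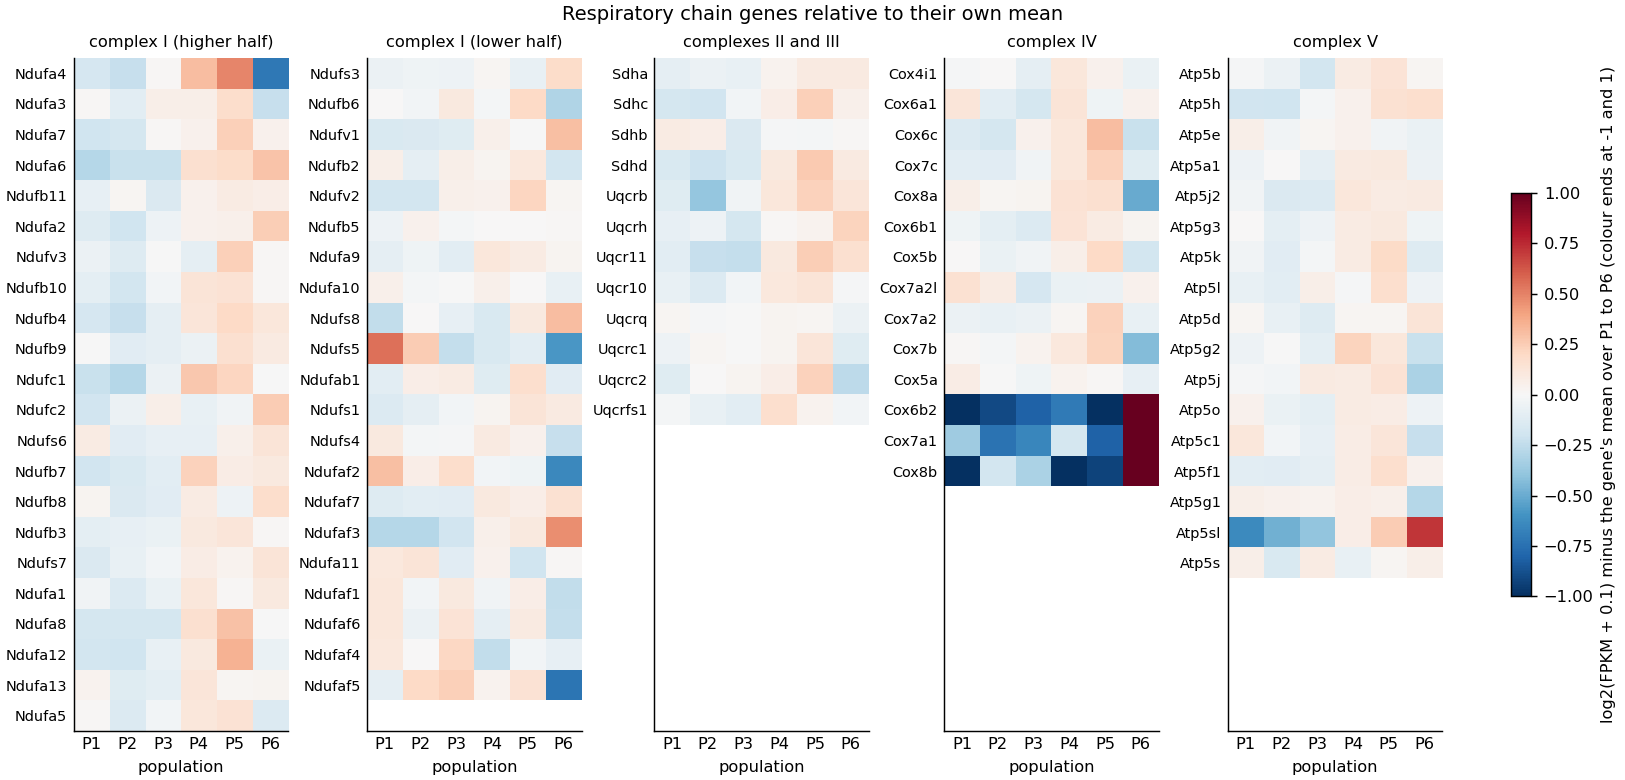
Difference of log2(FPKM + 0.1) from the gene's own mean over the 6 populations (colour, ending at -1 and 1) for 86 of the 87 members that passed the minimum level, in rows ordered by level within each complex, with populations in columns. Most rows are pale, with weak red in P4 and P5, and the strongest colours are in Cox6b2, Cox7a1, Cox8b, Atp5sl, Ndufa4, Ndufs5, Ndufaf2 and Ndufaf5, most of them through P6.

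ALDH activity was compared within CD105+ cells first. Between P1 and P2 the median log2 ratio was 0.03 over members (-0.05 over all genes), and between P2 and P3 it was -0.03 (-0.03). In P1 against P2 no member was higher by 1.5 times or more (2.7% of all genes) and 1 was lower (8.14%), which was Cox8b, listed at 0 in P1 and at 0.903 FPKM in P2. Between P2 and P3 no member passed 1.5 times in either direction (2.24% of genes higher, 5.39% lower). The interquartile range of the log2 ratios was 0.12 and 0.14 over members in the 2 pairs, against 0.29 and 0.26 over all genes. Leaving aside isoforms, the members with the widest values were Ndufs5, described further on, and Uqcrb, a small complex III subunit, with 124, 103 and 132 FPKM in P1, P2 and P3. Aldh1a2, the ALDH gene of the study, was listed at 469, 78.8 and 134 FPKM in the same libraries.

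ALDH activity within CD105- cells gave a similar picture. Between P4 and P5 the median was -0.04 over members and -0.03 over all genes, with interquartile ranges of 0.16 and 0.29. By the same limit, 2 members were higher in P4 (7.23% of genes) and 1 was lower (3.57%). The higher ones were the isoforms Cox6b2, with 6.31 against 3.58 FPKM and a ratio of 1.76 (1.24 to 2.51, a 95% interval for counting error only), and Cox7a1, with 3.11 against 1.97 FPKM. Cox8b was listed at 0 in P4 and at 0.501 FPKM in P5. Leaving aside isoforms, the widest was Ndufv3, a complex I subunit of the NADH-oxidising arm, with 70.2 FPKM in P4 and 88.4 in P5.

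The contrast of CD105 showed the most members shifted one way. At intermediate ALDH activity 72 of 87 members had a lower value in P2 than in P4, with a median log2 ratio of -0.13 (all genes -0.08, 38.5% of them higher in P2). At low ALDH activity 73 of 87 were lower in P3 than in P5, with a median of -0.15 (all genes -0.09, 37.9% of them higher in P3), so that the typical member was at 0.915 and 0.900 of its CD105- level. Division by Gapdh turned both medians to the opposite sign, 0.34 and 0.39, as it did those of all genes, 0.38 and 0.44; the members' median minus that of all genes was -0.05 and -0.06 as deposited and -0.04 and -0.05 after it. On the deposited scale, all 17 genes named for complex V, Atp5sl among them, and all 8 for complex III were lower in P2 than in P4. Their medians were -0.14 and -0.15. In P3 against P5, 15 of 17 and 8 of 8 were lower (-0.17 and -0.18).

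Few single members passed 1.5 times in these contrasts, and only Atp5sl did so in the direction of the shift. One member was at least 1.5 times higher in P2 than in P4 (8.28% of genes), Cox8b with its 0 in P4, and none was lower (12.4%). In P3 against P5, Cox6b2 (5.85 against 3.58 FPKM) and Cox8b (0.816 against 0.501 FPKM) were higher (10.9% of genes) and Atp5sl was lower (11.6%). Atp5sl, which is annotated as Dmac2, an assembly component of the complex I membrane arm, was listed at 2.85, 3.20, 3.39, 4.71, 5.37 and 7.44 FPKM in P1 to P6. It was thus lowest in the 3 CD105+ libraries and highest in P6, with a ratio of 0.630 (0.540 to 0.736) for P3 against P5 and of 1.91 (1.69 to 2.14) for P6 against the mean of P1 to P5, and after division by Gapdh the log2 ratio of P3 to P5 was -0.12. Mesothelial markers ran in the same order over the 6 libraries except that their sum was higher in P4 than in P5, and their part in the Atp5sl values was not tested.

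**Figure D3:**
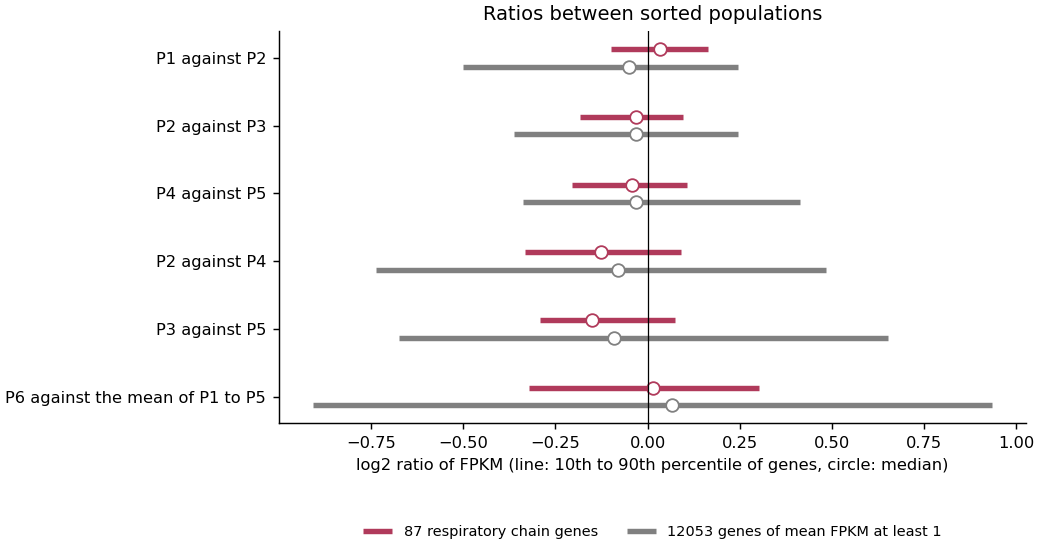
Log2 ratio of FPKM (horizontal) for the 6 comparisons (vertical), with the median as a circle and a line from the 10th to the 90th percentile over the 87 respiratory chain genes (red) and the 12053 genes with a mean of at least 1 FPKM (grey). In each comparison the red line is shorter than the grey one, and in P6 it runs from -0.32 to 0.30 against -0.91 to 0.93.

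P6, the CD140a-low fraction, differed most. Its median against the mean of the other 5 populations was 0.01 over members (-0.02 to 0.04 when any of P1 to P5 was left out of the mean) and 0.07 over all genes, with interquartile ranges of 0.27 and 0.65. By the limit of 1.5 times, 4 members were higher (17.2% of genes) and 5 were lower (14.1%). The 4 higher ones were Cox6b2, Cox7a1, Atp5sl and Cox8b, the last admitted by the minimum only through its 4.02 FPKM in P6. The 5 lower ones were Ndufaf5, Ndufa4, Ndufaf2, Ndufs5 and Cox8a. Cox8a lay just inside that limit (0.666 times) and the assembly factor Ndufaf3, at 11.4 FPKM in P6 against 6.72 to 8.80 elsewhere, just outside it (1.499 times). By complex the medians were 0.02 for I, 0.08 for II, -0.02 for III, -0.08 for IV and -0.06 for V.

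The higher members were mostly isoforms of complex IV. Cox6b2, known as the testis form of the subunit that bridges the dimer on the intermembrane side (mouse mm10, chr7:4751792-4753094), was listed at 4.52, 5.48, 5.85, 6.31 and 3.58 FPKM in P1 to P5 and at 36.3 FPKM in P6, 7.05 times the mean of the others (6.04 to 8.24). Its common partner Cox6b1 stayed between 119 and 143 FPKM, so Cox6b2 made up 2.53% to 4.70% of the pair in P1 to P5 and 21.5% in P6. Cox7a1, the heart and muscle form of subunit 7a (chr7:30184144-30186078), was listed at 2.73, 2.07, 2.20, 3.11 and 1.97 FPKM in P1 to P5 and at 9.05 FPKM in P6, a log2 ratio of 1.86 and 17.8% of its sum with Cox7a2 there against 3.69% to 6.56% elsewhere. In both pairs P6 lay far outside the range of the other 5 libraries while the common partner did not.

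The heart and muscle isoforms Cox8b and Cox6a2 also had their highest value in P6 at low levels. The former was listed at 0, 0.903, 0.816, 0 and 0.501 FPKM in P1 to P5 and at 4.02 FPKM in P6, and the latter at no more than 0.0708 FPKM in P1 to P5 and at 1.12 FPKM in P6. Striated muscle was not otherwise seen: 11 of its defining genes summed to 1.10 FPKM in P6 and 1.64 to 2.73 FPKM in P1 to P5, with Myh7, Ckm and Mb at 0 in P6, and among 7 brown adipocyte genes, which summed to at most 0.915 FPKM, Ucp1 was listed at 0 in all 6 libraries. The mesothelial sum was 76.1, 97.4, 154, 1032, 834 and 3156 FPKM in P1 to P6. In the same libraries Cox6b2 stood at 4.52, 5.48, 5.85, 6.31, 3.58 and 36.3 FPKM. Cox7a1 stood at 2.73, 2.07, 2.20, 3.11, 1.97 and 9.05 FPKM. Both isoforms were thus lowest in P5, whose mesothelial sum was above those of P1, P2 and P3. Within that sum, Upk3b and Krt19 were already at 383 and 197 FPKM in P4. By contrast, Msln, Krt8 and Krt18 were at 171, 57.2 and 67.0 FPKM in P6 against at most 6.86, 2.04 and 1.49 elsewhere. Of the 10 adipocyte genes, Cfd, Adipoq, Retn and Cidec were above 1 FPKM in P6 alone, whereas Lep was listed at 0 and Lpl at its lowest there. The part of mesothelial cells or adipocytes in the isoform values was not tested.

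The remaining isoforms ran the other way or were absent. Cox4i2, the lung form of subunit 4, was listed at 0.534, 0.925 and 0.972 FPKM in P1 to P3, 0.422 and 0.216 in P4 and P5 and 0 in P6. Ndufa4l2, a hypoxia-inducible relative of Ndufa4, was at 0.491, 2.48 and 1.71 FPKM in P1 to P3 and at 0.106 to 0.179 in P4 to P6. Both were therefore highest in CD105+ cells, at no more than 1.43% of the sum with their common partners. A list of 9 genes of mural cells, the contractile cells around vessels, summed to 74.0, 184, 294, 209.9, 346 and 106 FPKM in P1 to P6. Of these, Notch3 (2.08, 4.11 and 5.84 FPKM in P1 to P3 and 0.258 to 1.23 in P4 to P6) and Rgs5 (0.361 to 0.553 and 0.121 to 0.219 FPKM) were also highest in CD105+ cells. Abcc9 and Des were highest in P3 (29.8 and 198 FPKM), with 21.7 and 191 FPKM in P5. By contrast, Myh11 and Kcnj8 were highest in P5 (91.8 and 29.9 FPKM), and Acta2, Cspg4 and Mcam in P6 (35.0, 1.09 and 1.83 FPKM). The part of mural cells in the Cox4i2 and Ndufa4l2 values was not tested. The testis forms Cox7b2 (at most 0.0475 FPKM) and Cox8c (0 in all 6 libraries) were not detectable at this depth.

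**Figure D4:**
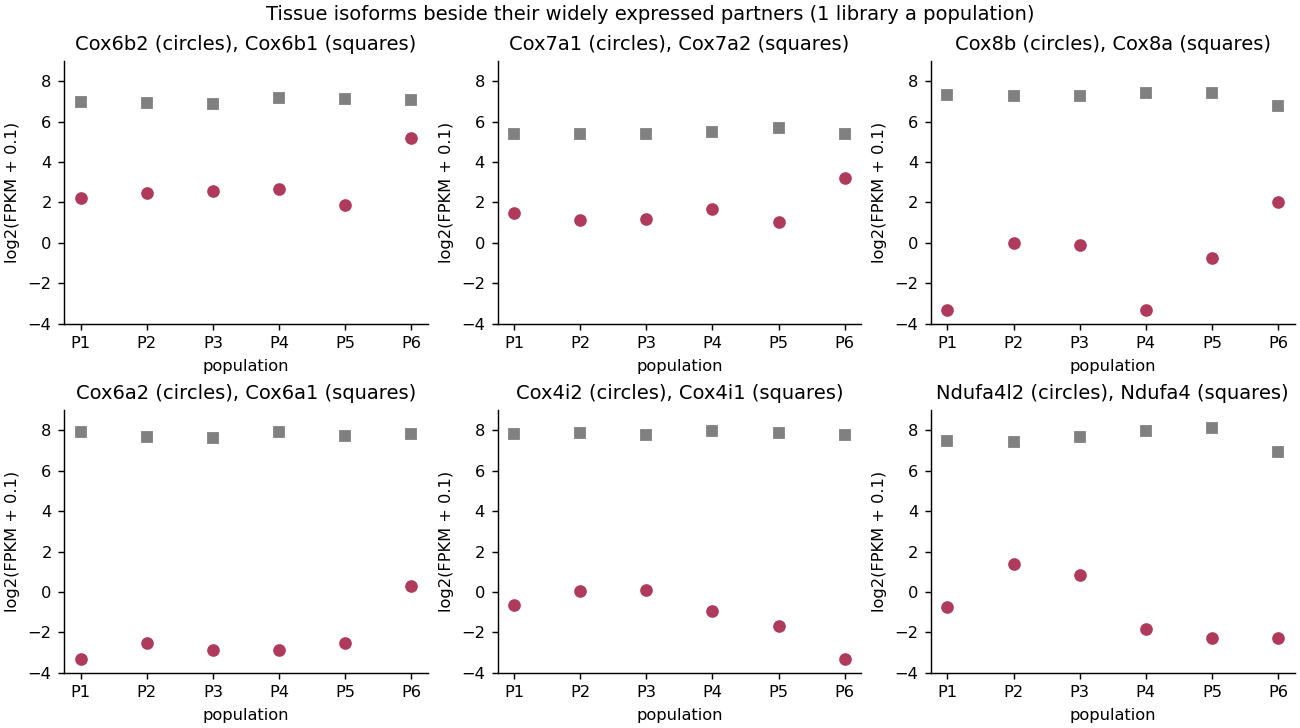
Log2(FPKM + 0.1) (vertical) in P1 to P6 (horizontal) of 6 tissue isoforms (red circles) and their common partners (grey squares), with 1 library a population; values listed at 0 lie at the lower end. Cox6b2, Cox7a1, Cox8b and Cox6a2 are highest in P6, at 36.3, 9.05, 4.02 and 1.12 FPKM, and Cox4i2 and Ndufa4l2 in P2 or P3.

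Among the lower members of P6, Ndufa4 was the most abundant. Its product is named for complex I and has since been placed in complex IV. Ndufa4 (chr6:11900292-11907497) was listed at 178, 171 and 202 FPKM in P1 to P3, 248 and 281 in P4 and P5 and 122 in P6, which was 0.564 times (0.538 to 0.592) the mean of the others. It was also lower in P2 than in P4, at 0.689 times (0.662 to 0.716), and in P3 than in P5, at 0.717 times (0.691 to 0.743), so the CD105- libraries and P6 lay at opposite ends of its range, although division by Gapdh brought these CD105 log2 ratios to -0.066 and 0.061. Cox8a, the common form of the smallest complex IV subunit, was at 154 to 171 FPKM in P1 to P5 and at 108 in P6, and Cox7b at 37.3 to 44.1 and 27.9 FPKM (0.702 times, 0.654 to 0.754). The other 8 common subunits of complex IV lay between 0.830 and 1.04 times.

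The assembly factors Ndufaf5 and Ndufaf2 were also lower in P6. Ndufaf5, which modifies the core subunit NDUFS7, was listed at 1.59, 1.96, 2.02, 1.74 and 1.88 FPKM in P1 to P5 and at 0.982 in P6 (0.535 times, 0.380 to 0.753). Ndufaf2, a late assembly chaperone, was at 11.1 to 14.1 FPKM in P1 to P5 and at 7.29 in P6, but 65.6% of its exon length overlaps the gene B230220B15Rik, so its reads could not be assigned with certainty in a library without strand. The 7 complex I assembly factors did not run together, since Ndufaf3 and Ndufaf7 were highest in P6.

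Ndufs5 had the widest range over the CD105+ libraries of any complex I gene with a mean of at least 1 FPKM. This accessory subunit (chr4:123712710-123718202) was listed at 39.9, 32.4, 23.0, 24.4, 25.3 and 18.2 FPKM in P1 to P6, the highest in P1 and the lowest in P6. A length of 76 bases, the read length, occurs in another gene for 32.0% of the positions of its transcript, all of them in the processed pseudogene BC002163, which was listed at 22.9, 25.2, 42.0, 40.5, 32.3 and 36.8 FPKM. The pseudogene was lowest in P1 and P2, where Ndufs5 was highest, and their sum was 62.8, 57.6, 65.0, 64.9, 57.5 and 55.0 FPKM, a spread of 1.18 times against 2.20 times for Ndufs5 alone. How reads were shared between the pair was not tested, and the Ndufs5 differences are reported as uncertain. Of the 92 members, 27 had over 5% of such positions shared with another gene, among them Atp5g2 (86.9%), Atp5l (75.7%) and Cox7c (50.3%), and 55 had none.

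**Figure D5:**
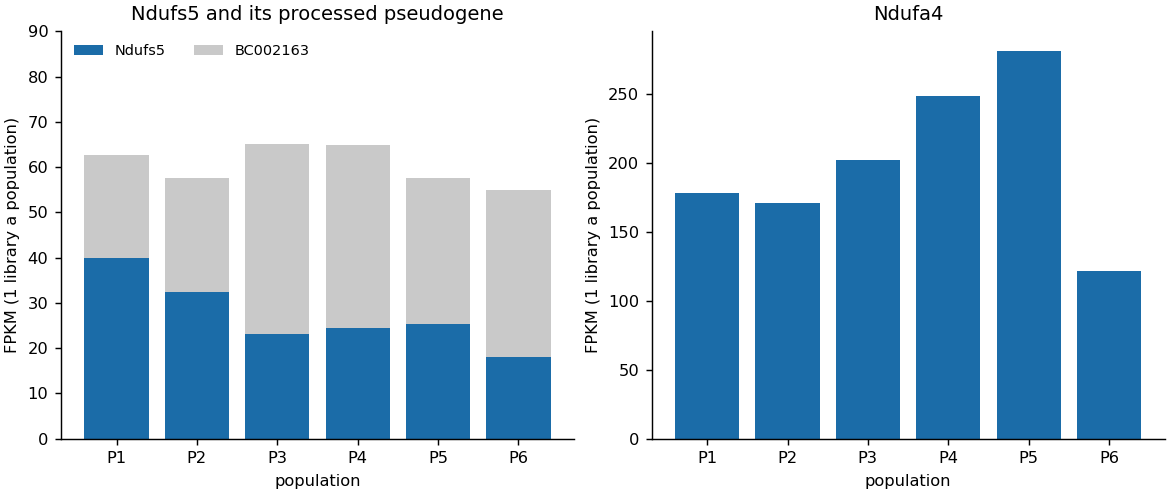
FPKM (vertical, bars from 0) in P1 to P6 (horizontal) of Ndufs5 with its processed pseudogene BC002163 stacked on it (left) and of Ndufa4 (right), with 1 library a population. Ndufs5 goes from 39.9 FPKM in P1 to 18.2 in P6 while the stack stays between 55.0 and 65.0, and Ndufa4 has its highest bar in P5 (281) and its lowest in P6 (122).

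The catalytic core was even. In complex I, Ndufv1, the NADH-binding subunit, was listed at 36.3 to 41.8 FPKM in P1 to P5 and 49.6 in P6, and the iron-sulphur subunit Ndufs8 at 23.8 to 30.1 and 34.9 FPKM, which made them the core subunits farthest up in P6 (1.29 and 1.30 times). Ndufs1, Ndufs3, Ndufs7 and Ndufv2 spanned 19.8 to 23.9, 44.0 to 52.7, 49.4 to 59.5 and 29.7 to 39.2 FPKM. None of these 6 had its highest value at 1.5 times its lowest.

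Complex II had 4 genes within 1.39 times. Sdha, the flavoprotein that oxidises succinate, was listed at 63.6 to 71.9 FPKM, and Sdhb, the iron-sulphur subunit, at 39.4 to 46.1 FPKM. The membrane anchors Sdhc and Sdhd were at 45.9 to 51.5 and 34.0 to 35.4 FPKM in P1 to P3 and at 55.0 to 61.9 and 42.1 to 47.2 FPKM in P4 and P5, with P6 between at 54.3 and 41.8 FPKM. Both anchors, like Sdha, were lower in each CD105+ library than in P4 and P5, an order that division by Gapdh turned (Sdhd 0.17 and 0.12, Sdhc 0.21 and 0.28, and Sdha 0.38 and 0.38 in P2 against P4 and P3 against P5, log2), whereas Sdhb was highest in P1 and P2. In complex III, Uqcrfs1, the Rieske iron-sulphur protein, was at 30.6 to 37.0 FPKM, and its more abundant small subunits Uqcrb, Uqcrh and Uqcr11 at 103 to 159, 104 to 137 and 91.4 to 128 FPKM.

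In ATP synthase, the catalytic pair Atp5a1 and Atp5b was listed at 137 to 156 and 172 to 215 FPKM, the central stalk gene Atp5c1 at 66.7 to 84.8 FPKM, and Atp5e and Atp5h at 152 to 165 and 156 to 201 FPKM. The genes Atp5g1, Atp5g2 and Atp5g3 all make the same mature subunit c of the rotor. Their summed FPKM was 294, 288, 285, 323, 315 and 267 in P1 to P6, and Atp5g3 provided 45.1% to 50.5% of it, Atp5g2 32.3% to 36.2% and Atp5g1 17.2% to 20.1%. The shares of the 3 genes thus kept their order in all 6 libraries, with the reservation that most of the Atp5g2 transcript is shared with another gene.

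Promoter sequences are shown for the member of each complex with the most matches to the motifs of NRF1, GABPA, YY1 or the oestrogen-related receptors (ERR) in the 200 bases before its start, with ties settled by level, and for the isoforms Cox6b2 and Cox7a1, whose values stood apart in P6. They come from RefSeq (GRCm38.p6), read 5' to 3' on the strand of the gene and end at the base before its start. Capitals mark motif matches on either strand. The choice used only the 70 of 78 promoters whose last 30 bases, past the start, were found in a transcript of the gene. Atp5g2, Atp5h and Sdhd were among those left out. Ndufb4 (chr16:37654369-37654568, minus strand), Sdha (chr13:74350241-74350440, minus) and Cox6a1 (chr5:115348959-115349158, minus) carry NRF1 matches, Uqcrh (chr4:116075071-116075270, minus) a GABPA match and Atp5g3 (chr2:73911327-73911526, minus) an ERR match.
Ndufb4: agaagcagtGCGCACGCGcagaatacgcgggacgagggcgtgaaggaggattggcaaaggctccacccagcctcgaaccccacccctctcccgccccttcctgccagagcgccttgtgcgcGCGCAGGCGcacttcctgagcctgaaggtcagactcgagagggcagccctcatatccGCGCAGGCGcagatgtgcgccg
Sdha: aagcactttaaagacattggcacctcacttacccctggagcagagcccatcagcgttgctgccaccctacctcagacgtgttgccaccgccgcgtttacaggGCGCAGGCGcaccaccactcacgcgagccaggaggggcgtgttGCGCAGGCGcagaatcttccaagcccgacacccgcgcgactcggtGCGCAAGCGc
Uqcrh: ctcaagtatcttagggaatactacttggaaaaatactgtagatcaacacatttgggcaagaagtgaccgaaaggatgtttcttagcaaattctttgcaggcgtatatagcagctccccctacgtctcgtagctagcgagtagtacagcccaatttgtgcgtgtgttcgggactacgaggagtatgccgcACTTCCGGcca
Cox6a1: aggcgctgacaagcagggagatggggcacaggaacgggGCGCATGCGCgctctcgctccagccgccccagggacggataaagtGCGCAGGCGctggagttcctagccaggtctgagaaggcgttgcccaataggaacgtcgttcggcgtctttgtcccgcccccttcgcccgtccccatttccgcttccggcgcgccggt
Atp5g3: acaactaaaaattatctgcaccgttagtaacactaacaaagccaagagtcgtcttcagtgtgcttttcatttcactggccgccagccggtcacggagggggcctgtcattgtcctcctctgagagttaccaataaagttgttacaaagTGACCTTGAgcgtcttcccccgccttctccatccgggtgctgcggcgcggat
The window of Cox6b2 (chr7:4753095-4753294, minus) holds only a match to the SP1 motif and that of Cox7a1 (chr7:30183971-30184170, plus) none.
Cox6b2: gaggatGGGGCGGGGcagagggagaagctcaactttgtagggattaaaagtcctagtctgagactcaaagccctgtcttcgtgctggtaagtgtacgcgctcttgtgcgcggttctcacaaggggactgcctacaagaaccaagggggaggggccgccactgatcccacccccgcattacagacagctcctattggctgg
Cox7a1: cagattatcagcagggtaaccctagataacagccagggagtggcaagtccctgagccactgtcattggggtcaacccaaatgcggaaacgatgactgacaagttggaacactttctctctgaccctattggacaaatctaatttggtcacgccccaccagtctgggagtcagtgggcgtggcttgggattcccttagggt

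Over the whole set, 73 members had 78 promoters of 300 bases, 250 before to 50 after the start, in the RefSeq table. The NRF1 motif GCGCANGCG, which can match both strands at one place, was present in 23 of the 78 (29.5%), against 6.25% of all 32851 promoters and 13.1% of those of other genes with a mean of at least 1 FPKM. The YY1 motif AAGATGGCG was in 7 (8.97%, against 1.40% and 3.02%) and the ERR motif TCAAGGTCA in 2 (2.56%, against 0.423% and 0.268%). The GABPA motif CCGGAAGT was in 5 (6.41%, against 3.89% and 7.96%) and the SP1 motif GGGGCGGGG in 11 (14.1%, against 11.4% and 21.6%). None of the 4 isoform promoters in the table had an NRF1, GABPA, YY1 or ERR match. A match describes letters and not binding, and no test was made.

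Listed regulators of the chain, among them factors known to bind these motifs, stood mostly at moderate levels. Yy1 was at 30.4 to 36.1 FPKM. Nrf1 was at 5.70 to 6.70 FPKM, Gabpa at 12.6 FPKM in P1, its lowest, to 19.4 in P5, its highest, Tfam, the packaging factor of mitochondrial DNA, at 4.46 to 6.74 FPKM and Esrra at 7.93 to 11.4 FPKM. Ppargc1a, which encodes the coactivator PGC-1 alpha, was at most 0.313 FPKM. Of the 13 listed regulators with a mean of at least 1 FPKM, none was at least 1.5 times higher in P6 (17.2% of all genes) and 2 were lower (14.1%), the mitochondrial rRNA methyltransferase gene Tfb1m (1.60 FPKM in P6 against 2.26 to 3.53) and the nuclear receptor gene Ppard (6.55 against 8.57 to 12.2). Tfb1m was also lower in P1 (2.28 FPKM) than in P2 (3.53 FPKM), in a comparison where 8.14% of all genes were lower.

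Genes next to the chain in function gave a few larger differences. Cyc1 and Cycs, cytochromes c1 and c, were at 28.6 to 33.5 and 8.07 to 9.85 FPKM. Mdh2, the malate dehydrogenase of the TCA cycle, was listed at 60.6, 63.7, 65.2, 103, 109 and 173 FPKM in P1 to P6 and was the 1 of 17 TCA cycle and pyruvate dehydrogenase genes past 1.5 times in any comparison. Vdac1, the outer membrane pore, was at 60.1, 62.7, 66.4, 107, 113 and 122 FPKM, and the ADP/ATP carrier gene Slc25a5 at 58.7 to 72.4 FPKM in P1 to P5 and 42.8 in P6, while the other 20 carriers, pores and membrane-shaping genes stayed under 1.5 times in every comparison. Mdh2 and Vdac1 passed that limit downward in P2 against P4 (12.4% of all genes were lower) and in P3 against P5 (11.6%). In P6 Mdh2 was higher (17.2%) and Slc25a5 lower (14.1%). In the comparisons of ALDH activity 2.24% to 8.14% of all genes passed it in a given direction. On the deposited scale, Mdh2 and Vdac1 were lowest in the 3 CD105+ libraries and highest in P6, the order also seen for Atp5sl.

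Assembly factors outside the naming rule were counted in the same way. Of 25 factors for complexes III to V with a mean of at least 1 FPKM, 2 were at least 1.5 times higher in P6 (17.2% of all genes) and none lower (14.1%): Cox17, the copper chaperone of complex IV (78.5 FPKM against 38.6 to 55.7), and Atpaf1, a chaperone of ATP synthase (9.24 against 4.06 to 6.84). Nubpl, which delivers iron-sulphur clusters to complex I, was at 3.08, 3.72, 4.42, 5.90, 6.12 and 7.85 FPKM and was the 1 of 9 complex I and II factors past that limit, in P6 and, downward, in P2 against P4. Cox20, a chaperone of the complex IV subunit COX2, was also lower in P2 than in P4, at 37.3 against 56.2 FPKM (12.4% of all genes were lower). Atpif1, the inhibitor of ATP synthase, was at 94.8 to 103 FPKM in P1 to P3 and 129 to 138 in P4 to P6. The 76 mitochondrial ribosomal protein genes had a median log2 ratio of -0.03 in P6, with 1 higher and 2 lower, and 78 cytoplasmic ribosomal protein genes had a median of -0.39, with none higher and 14 lower (17.2% of all genes were higher and 14.1% lower).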

How the data were processed

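RNA of 6 populations sorted by FACS Aria III from enzymatically digested omentum was purified with the RNeasy Micro kit, made into NEBNext Ultra libraries, which keep no strand, and sequenced as single 76-base reads on an Illumina NextSeq instrument. Per the labels, the authors used TopHat2 2.0.7 and Cufflinks 2.1.1 with mm10 and deposited FPKM per gene; the annotation, filters and any scaling between libraries were not given in the sources used here. Each table had 23847 rows, and the 495 rows repeating a symbol, none of them a member, were summed into 23352 genes. Members and gene lists were chosen with earlier results of these data known.

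From there, log2 ratios used FPKM + 0.1 over genes with a mean of at least 1 FPKM, and a gene was counted as higher or lower past 1.5 times. P6 was set against the mean of P1 to P5. Plain ratios use FPKM without the added value. With 1 library per population there was no test. Genes were named if past that limit in a comparison, if among the 3 highest of a complex, if core subunits or if tissue isoforms with their partners; the evenest and widest members, Ndufv3, Ndufaf3, Ndufaf7, Cox7b, Cox17, Atpaf1 and Nubpl were named after their values were seen. Depth came from the step between low FPKM values of transcripts of at least 800 nt, where 47.7% to 53.7% of values of up to 10 reads came out whole within 0.05 (10% by chance), too few to recover counts. Reads per gene were estimated from it, GENCODE M21 transcript lengths and a fragment length of 200, and the 95% intervals cover counting error only and are left out under 400 nt. The values of 1 member by itself are not reported here. An FPKM of exactly 0 can be a failed estimate. Shared 76-base positions were counted against GENCODE M21 transcripts on both strands. Python 3 with numpy and pandas was used, and the ratios were checked on simulated reads. Alternatives were a pseudocount of 1, no minimum or 10 FPKM, 4 other scalings, repeated symbols left out, narrower member sets, other folds and leaving out each of P1 to P5; 3 more were chosen after seeing the data (members with under 5% shared positions, members above 0 in every library, and highest values without P6).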

Additional observations from a re-analysis of the deposited data

Results flagged for a closer look

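The Cox6b2 difference between CD105+ and CD105- cells ran in opposite directions at the 2 levels of ALDH activity. On the log2 scale it was -0.20 at intermediate activity (5.48 FPKM in P2 and 6.31 in P4, a ratio of 0.869 with a 95% counting interval of 0.636 to 1.19, which spans 1) and 0.69 at low activity (5.85 FPKM in P3 and 3.58 in P5, 1.63 times, 1.14 to 2.33), which made the first -0.89 relative to the second. After division by Gapdh both were above 0, at 0.27 and 1.22. The difference was not tested, and each of the 4 values comes from 1 library with an estimated 49.3 to 82.3 reads on the gene.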

How the results depend on the processing

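No paired analysis was possible because no population was sequenced more than once. Of 77 recomputed medians over the members, 72 stayed within 0.1 of the reported value on the log2 scale and 66 kept their sign, among them all 48 with other pseudocounts, minimums, member sets or without repeated symbols. The median of P6 turned to -0.0063, -0.015 and -0.016 without P1, P2 and P3. That of P1 against P2 turned to -0.0011 with a common sum, and that of P2 against P3 to 0.0080 with Gapdh and 0.014 with the median of ratios. Division by Gapdh gave 0.34 for P2 against P4, 0.39 for P3 against P5, 0.066 for P4 against P5 and -0.089 for P6 against the others, and the median of ratios gave -0.11 for P6; these follow from Gapdh and the typical gene differing between libraries. Single members were listed as turned only if named by rule, not after their values were seen, with a reported log2 ratio of at least 0.3 in size. By that limit, division by Gapdh turned Sdhd (0.17) and Uqcr11 (0.15) in P2 against P4. In P3 against P5 it turned Atp5b (0.22), Ndufa4 (0.061), Sdhd (0.12) and Uqcr11 (0.058). Members with smaller ratios, such as Sdha and Sdhc, turned as well and are not in this list.

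The number of members highest in each population depended on scaling. With a common sum P1 to P6 held 5, 2, 8, 8, 41 and 23 members (11.9%, 8.68%, 10.5%, 3.29%, 24.9% and 40.8% of all genes). With the median of ratios P1, P2, P3, P5 and P6 held 38, 4, 0, 22 and 12 (28.7%, 9.64%, 8.46%, 19.6% and 28.4%), with Gapdh P1 to P6 held 46, 13, 20, 0, 0 and 8 (29.0%, 18.3%, 22.2%, 0.863%, 3.06% and 26.5%), and with quantile normalization 17, 5, 3, 5, 29 and 28 (27.5%, 10.9%, 8.53%, 3.34%, 20.04% and 29.6%). The counts past 1.5 times moved most with Gapdh, which put 8 members higher in P2 than in P4 (25.5% of all genes) and 11 higher in P3 than in P5 (32.7%). With a pseudocount of 1 the log2 ratio of Cox7a1 in P6 was 1.56 and that of Ndufaf5 was -0.52. Differences of low isoforms are limited by depth, and without replicates no spread between animals is known.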
